A study of Arabidopsis thaliana with 2 samples.

Results

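GLP6 (AT5G39100) and 7 germin-like genes next to it form a tandem cluster on chromosome 5 of Arabidopsis thaliana. The cluster was taken as the probes of 8 listed loci, AT5G39100 to AT5G39190, and it gave 8 of the 19552 genes tested. It was chosen because the GLP6 ratio was among the largest in these data, so the ratios of its members are given as a description and no p-value is attached to them. Roots of 10-day-old Col-0 seedlings were kept for 6 h with 10 µM AlCl3 at pH 5.0 or for 6 h at pH 5.0 with no AlCl3, after hydroponic growth at pH 5.5. All seedlings were wild-type Col-0, and the labels do not say how many were pooled per RNA. Each of 2 arrays carried both RNAs, labelled with Cy3 and Cy5, and the dyes were exchanged between the arrays: aluminium RNA was in Cy3 for replicate 1, and in Cy5 for replicate 2. Values are log2 ratios of aluminium over no aluminium, on the scale that follows background correction and loess normalisation, with the SD over 2 arrays.

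Germin-like proteins are small secreted glycoproteins of the cupin superfamily, which share a barrel-shaped fold that binds a metal ion, and they sit in the cell wall and the extracellular matrix. The founding members, the germins of wheat and barley, are oxalate oxidases that release hydrogen peroxide, and some germin-like proteins of other plants have superoxide dismutase activity. Germin-like genes often lie in tandem arrays of near copies, and oxalate oxidase and germin-like genes have been studied in wheat roots under aluminium.

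The median spot signal was between 4.60 and 8.62 times its local background over the 4 channels, and the scanner software placed at least 94.4% of 21500 probes well above it in each channel. The ratios of replicates 1 and 2 correlated with a Pearson r of 0.80 over all genes, which are not independent of each other. Replicate, dye orientation and array layout changed together and cannot be told apart. Of 8 root markers 7 had a probe, and all 7 were well above background in all 4 channels, as were all 6 green shoot markers, so the markers did not separate root from shoot tissue. Of the root markers 5 of 7 fell in the aluminium RNA, where 6.42% of all genes were called lower. The median ratio was -0.52 over the 7, and 0 of 6 green shoot markers passed in either direction (median -0.02). Other settings were not examined for the markers. Their part in the germin-like results was not tested. In RNA of whole roots, fewer cells of a type and less RNA per cell cannot be told apart.

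Each member had 1 probe, named for the same locus in both array layouts. In the coordinates printed with the layout of replicate 1, whose genome build is not given in the sources used here, the probes run from chr5:15670371-15670430 for GLP6 to chr5:15710471-15710530 for GER2, a span of 40.2 kb. All 8 positions are written from higher to lower. The AT5G39110 probe spans 174 bases of genome, at chr5:15675539-15675712, and the other probes 60. That layout also lists the transcripts each probe matches, which shows which copies a probe may not separate. Probes of GLP6, AT5G39110, AT5G39120 and AT5G39180 list 1 locus each. The probes of AT5G39130, AT5G39160 and GER2 all list the same 3 loci, namely each other, and the AT5G39150 probe lists AT5G39110 and AT5G39180 besides its own locus. Thus 4 of the 8 probes may, by their listed loci, report on several of the copies at once. The probe sequences were not used here.

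Mean ratios within the cluster ran between 0.06 and 3.28. Of its members 4 were among the genes called higher with aluminium, by limma with Benjamini-Hochberg adjustment at 0.05, 0 were called lower and 4 were not called, where 8.19% of all genes were higher, 6.42% lower and 14.6% changed in either direction. The cluster was chosen on this same contrast, so the counts are no test of it and nothing is read from them. The 4 became 1 of 8 with the scanner software's ratios, and 0 of 5 in limma with the series matrix values, where 3 had an unadjusted p under 0.05. At least 2-fold higher on both arrays were 3 members, GLP6, AT5G39150 and AT5G39180, against 1.61% of all genes. By probe position along the chromosome, high and flat ratios were interspersed. GLP6 came first, then AT5G39110 with a smaller rise, the flat AT5G39120 and AT5G39130, AT5G39150, the flat AT5G39160, AT5G39180 and the flat GER2. Since 4 of the probes list several loci, this is an order of probes and does not resolve each gene.

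**Figure D1:**
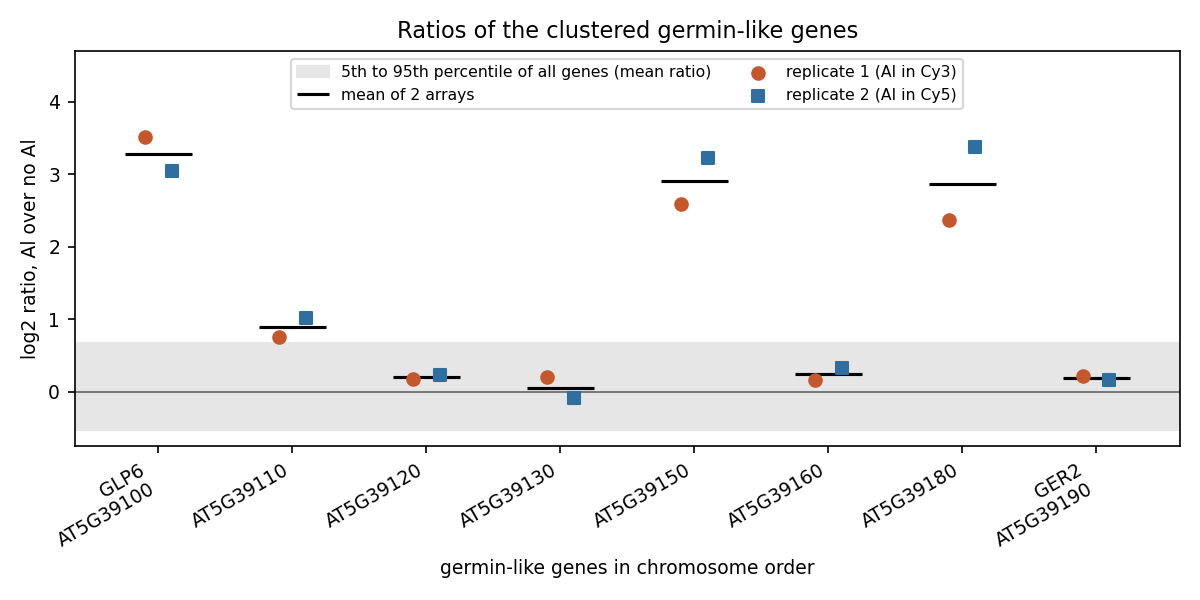
Log2 ratio of aluminium over no aluminium (y axis) for the 8 clustered germin-like genes in chromosome order (x axis). Circles are replicate 1, squares replicate 2, bars the mean of both, and the grey band holds the 5th to 95th percentile of the mean ratio over all genes. GLP6, AT5G39150 and AT5G39180 lie between 2.37 and 3.52 on both arrays, AT5G39110 at 0.76 and 1.02, and the other members between -0.09 and 0.33.

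GLP6 had a mean spot signal of 1285 and 904 in the aluminium RNA on replicates 1 and 2, against 226 and 158 in the no aluminium RNA. Both aluminium spots were far brighter than both controls, at 21.8 and 15.6 times their local background, and the control spots stood at only 3.37 and 2.11 times theirs, yet above it by the scanner software's criterion. After normalisation the GLP6 ratio was 3.52 on replicate 1 and 3.05 on replicate 2, a mean of 3.28 ± 0.33 (SD, n = 2) or 9.73-fold, the 10th largest mean ratio of all genes. The gene was thus higher in the aluminium RNA in either dye. The size of this change differed with how the ratio was made. With the background treatment alone changed, the mean was 2.83, or 7.13-fold, without correction and 3.49, or 11.2-fold, with plain subtraction. The scanner software's own ratios, which also differ in normalisation, gave 4.06 and 4.65 (mean 4.35). The series matrix values deposited by the authors, whose normalisation is unknown, gave 4.06 and 6.27 (mean 5.16, or 35.8-fold).

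AT5G39150, a germin-like gene with no other name in RefSeq, had signals of 2367 and 2730 in the aluminium RNA, against 783 and 260 in the no aluminium RNA. Both aluminium spots were brighter than both control spots before normalisation. On the normalised log2 intensity scale its level was 11.38 ± 0.02 in aluminium roots and 8.47 ± 0.43 in control roots (SD, n = 2 each), so the arrays differed mostly in the control. The ratio was 2.59 on replicate 1 and 3.22 on replicate 2, a mean of 2.90 ± 0.45 or 7.48-fold. Its probe also lists AT5G39180 and AT5G39110, and this value may therefore hold signal of any of the 3 genes.

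AT5G39180 is likewise known only as germin-like, and its probe lists no other locus. It had signals of 2843 and 4130 in the aluminium RNA, against 1102 and 323 in the no aluminium RNA. The lower aluminium spot was still 49.9 times its background, and before normalisation both aluminium spots were brighter than both control spots. Its ratio was 2.37 on replicate 1 and 3.37 on replicate 2, a mean of 2.87 ± 0.71 or 7.31-fold. The 1.00 by which its arrays differed is more than the 0.41 that separates the highest and lowest mean ratio among GLP6, AT5G39150 and AT5G39180. GLP6 had the largest ratio of the 3 on replicate 1 and AT5G39180 on replicate 2, so their order was not resolved.

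AT5G39110 stood between the high and the flat members. Its signals were 368 and 401 in the aluminium RNA, against 381 and 223 in the no aluminium RNA, so the raw values of replicate 1 were nearly equal. On that array the median spot stood at 6.04 times its background in the aluminium channel and at 8.62 times in the no aluminium channel. After loess normalisation its level was 8.60 ± 0.0033 in aluminium roots and 7.71 ± 0.19 in control roots (SD, n = 2 each). The ratio was 0.76 and 1.02 on replicates 1 and 2, a mean of 0.89 ± 0.19 or 1.85-fold. This lay below the lowest single ratio of the 3 high members, 2.37, and above the highest of the flat members, 0.33. Series matrix values were 0.89 and 1.59, a mean of 1.24, and the scanner software's ratios had a mean of 1.14.

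**Figure D2:**
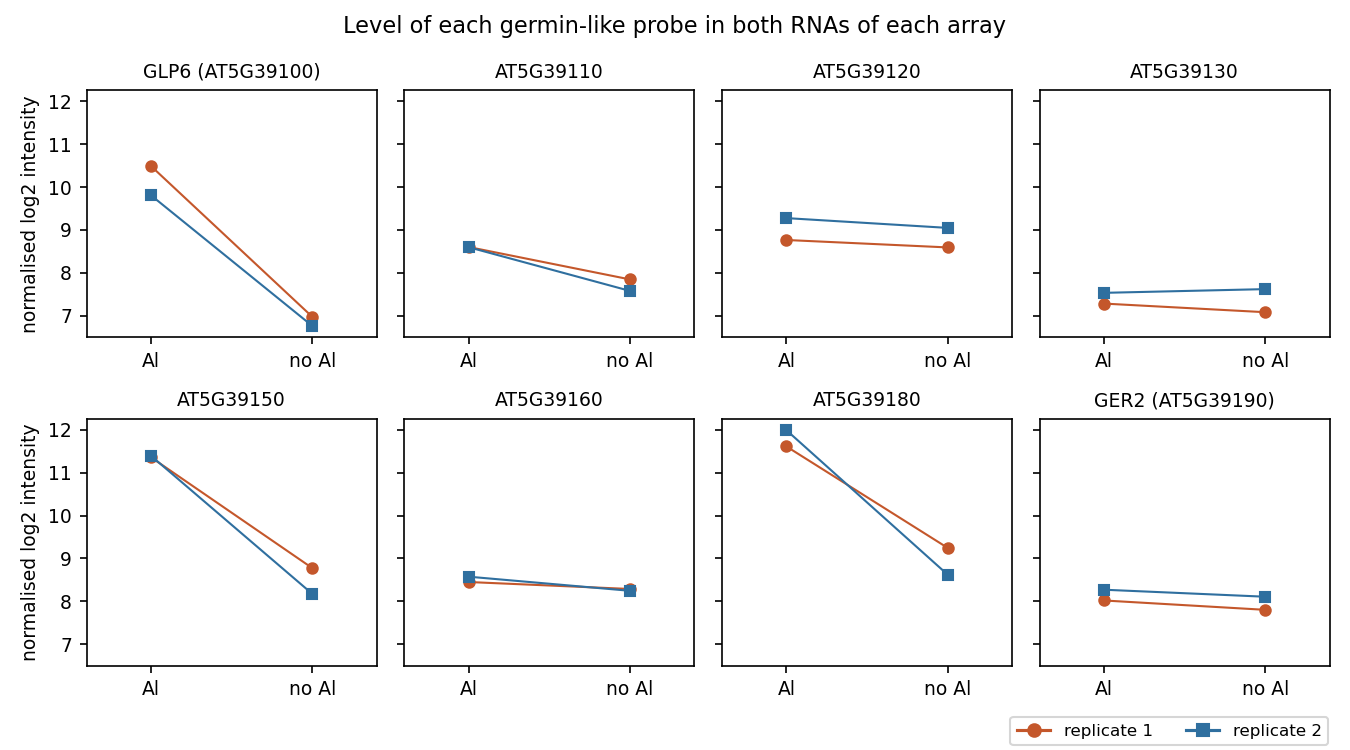
Normalised log2 intensity (y axis) of each of the 8 germin-like probes in aluminium and no aluminium RNA (x axis), with a line joining both RNAs of 1 array (circles replicate 1, squares replicate 2). The lines fall steeply from aluminium to no aluminium for GLP6, AT5G39150 and AT5G39180, less for AT5G39110, and are nearly level for the rest. Heights are not comparable between probes.

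The 3 probes that list AT5G39130, AT5G39160 and GER2 together gave similar, small ratios. GER2 (AT5G39190), also named GLP2A, had signals of 257 and 325 in the aluminium RNA, against 361 and 284 in the no aluminium RNA, and ratios of 0.22 and 0.16. AT5G39160, labelled in the replicate 2 layout as another copy of the gene named there for GER2, had signals of 338 and 395 in the aluminium RNA, against 521 and 298 in the no aluminium RNA, and ratios of 0.16 and 0.33. AT5G39130 was the dimmest of these spots, with 172 and 201 in the aluminium RNA, against 206 and 238 in the no aluminium RNA. Its ratios of 0.20 and -0.09 were of opposite sign, the only such case in the cluster. Since each of these probes lists the other loci too, the ratios may describe the group of copies and not each gene. Their means were 0.19 ± 0.04 for GER2, 0.25 ± 0.12 for AT5G39160 and 0.06 ± 0.20 for AT5G39130.

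AT5G39120, whose probe lists no other locus, was flat as well. The array description likens it to GLP6, as it does AT5G39150 and AT5G39180, which were high. Its signals were 414 and 634 in the aluminium RNA, against 652 and 434 in the no aluminium RNA, and its normalised levels overlapped, at 9.02 ± 0.36 in aluminium roots and 8.82 ± 0.32 in control roots (SD, n = 2 each). The ratio was 0.17 on replicate 1 and 0.23 on replicate 2 (mean 0.20 ± 0.04), and with median centring in place of loess 0.05 and 0.37. A ratio of that size did not pass the threshold, which does not show that the level was the same in both RNAs.

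All 32 member spots over the 4 channels were well above background and 0 were saturated. Their signal ran between 2.11 and 68.8 times the local background. The lowest was the GLP6 control spot of replicate 2, and the size of the GLP6 ratio differed with the background treatment.

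**Figure D3:**
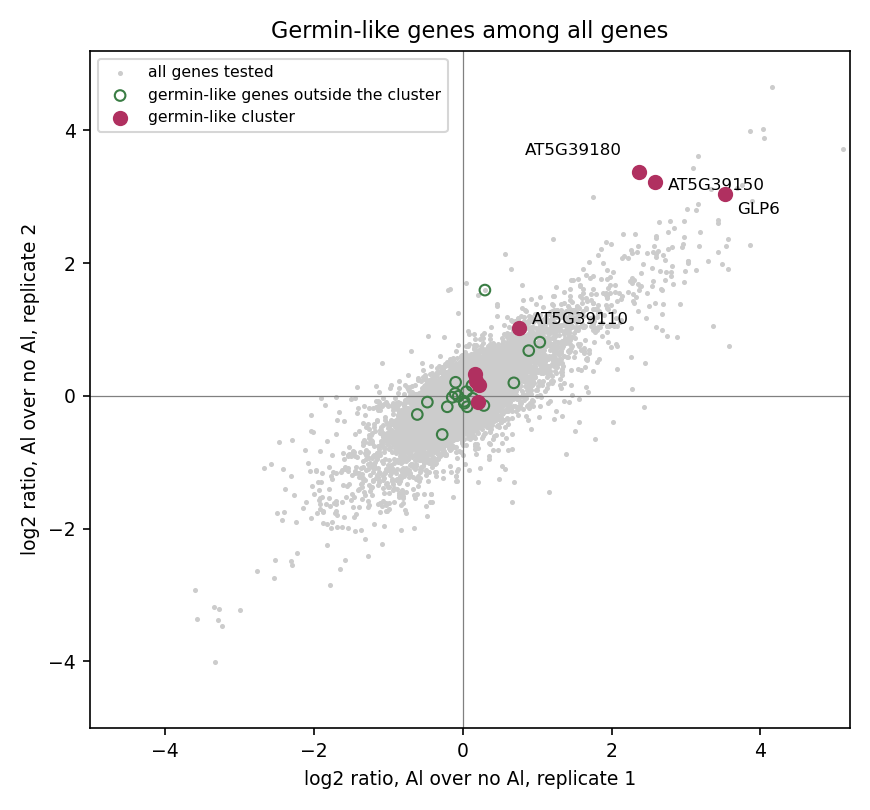
Log2 ratio of aluminium over no aluminium on replicate 1 (x axis) and replicate 2 (y axis) for all 19552 genes (grey dots), the clustered germin-like genes (filled circles, the 4 highest named) and germin-like genes elsewhere (open circles). GLP6, AT5G39150 and AT5G39180 lie at the upper right with ratios of at least 2.37 on both arrays, and the 4 flat members lie near 0.

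The genes most like GLP6 were those with the smallest distance between their pair of ratios and its own, over 2 arrays. Nearest was NHL3, of the NDR1/HIN1-like membrane proteins, with 3.68 and 3.13 on replicates 1 and 2 (distance 0.19). The beta-glucosidase gene BGLU25 followed with 3.34 and 3.12 (0.19), then AT5G39670, described as a calcium-binding EF hand protein, with 3.75 and 3.18 (0.27). AT5G17760, an AAA-type ATPase by its description, had 3.89 and 2.94 (0.38), and AT2G18690, with no described function, 3.17 and 2.89 (0.38). With 2 arrays, such likeness says only that the pairs of ratios are close.

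Of 24 germin-like loci elsewhere in the genome 19 were tested, 2 rose, 0 fell and 17 did not pass, with a median ratio of -0.03, against 0.00 for all genes. The 2 are 10.5% of those tested, near the 8.19% of all genes that were higher, so the count says nothing particular about the family. The 2 that rose are neighbours on chromosome 1, their probes 2.50 kb apart in the array's coordinates. GLP4 (AT1G18970) had ratios of 0.89 and 0.68, a mean of 0.79 ± 0.15 or 1.72-fold (limma adjusted p = 0.0123). AT1G18980 had 1.04 and 0.81, a mean of 0.92 ± 0.16 or 1.90-fold (limma adjusted p = 0.00868). Of the 19 genes 0 were at least 2-fold higher on both arrays, against 1.61% of all genes.

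A second germin-like group lies on chromosome 5, its last probe 59.4 kb before that of GLP6 in the array's coordinates. It holds 4 tested genes whose positions are written from lower to higher, unlike those of the cluster. AT5G38910 had 0.30 on replicate 1 and 1.59 on replicate 2, a mean of 0.95 ± 0.92 that did not pass (limma adjusted p = 0.105). AT5G38940 had -0.61 and -0.28 (limma adjusted p = 0.0685), AT5G38930 had -0.47 and -0.09, and AT5G38960 had -0.09 and 0.21, and none of these passed either. Of the other genes outside the cluster, GLP9 (AT4G14630) had 0.69 and 0.20 and AT3G10080 -0.27 and -0.58, neither past the threshold. The 5 loci not tested were GER3 (AT5G20630), whose spot carried an outlier mark, AT1G74820 and AT3G04170, not well above background, AT5G26700, whose probe is named for different loci in the array layouts, and AT1G02335, for which no probe was found in the files used here.

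**Figure D4:**
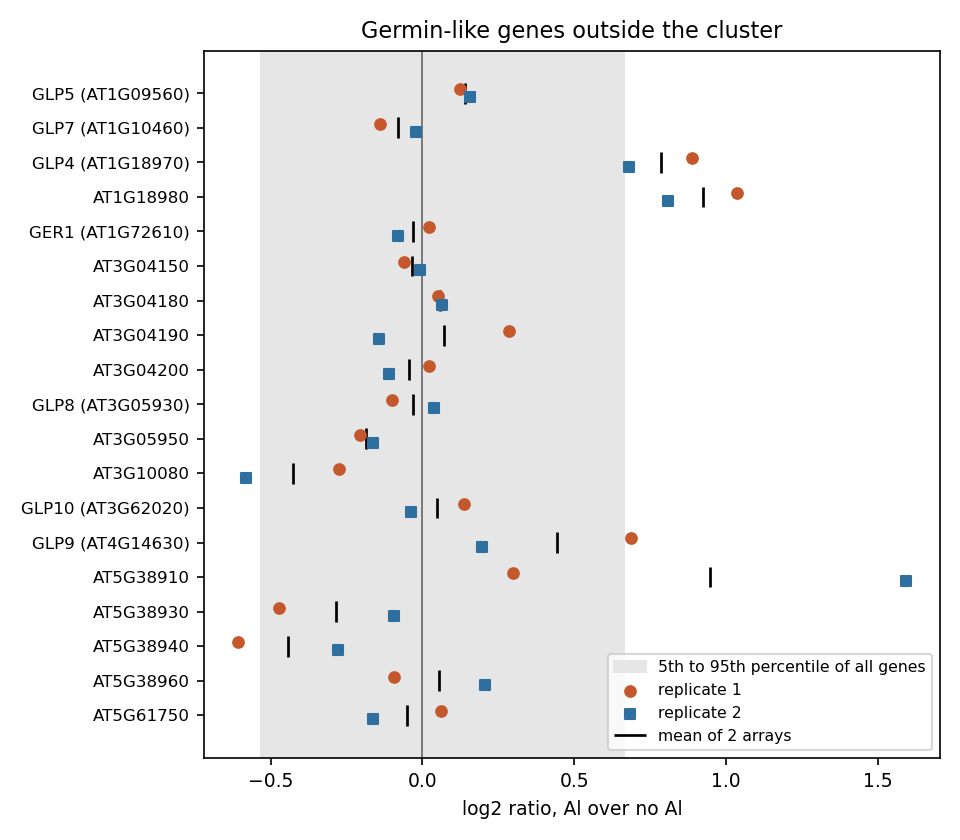
Log2 ratio of aluminium over no aluminium (x axis) for the 19 germin-like genes outside the cluster, ordered by locus from top to bottom. Circles are replicate 1, squares replicate 2 and bars the mean, over a grey band with the 5th to 95th percentile of all genes. GLP4 and AT1G18980 are higher on both arrays, between 0.68 and 1.04, and AT5G38910 differs between arrays, at 0.30 and 1.59.

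The genes that flank the cluster were counted in the same way. Over 28 tested loci between AT5G38900 and AT5G39400 that are neither members nor on the family list, 3 rose, 2 fell and 23 did not pass, with a median of 0.02. These are 10.7% higher and 7.14% lower, near the 8.19% and 6.42% of all genes. The 3 acyltransferase-type genes just before GLP6 did not pass: PMAT1 (AT5G39050), a malonyltransferase of phenolic glucosides, had -0.52 and 0.27 on replicates 1 and 2, AT5G39080 had 0.17 and 0.42, and AT5G39090 had 0.08 and -0.11. On the far side CRR7, a chloroplast NAD(P)H dehydrogenase assembly gene with its probe 10.7 kb beyond that of GER2, had 0.08 on either array. The 6 expansin genes beyond it had mean ratios between -0.06 and 0.12. AT5G38950, whose array description relates it to germin-like proteins, had -0.04 and 0.06.

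The largest rise in that stretch was AT5G38900, described as a DSBA-type oxidoreductase, with ratios of 1.45 and 1.23, or 2.54-fold (limma adjusted p = 0.00394). ABCB27 (AT5G39040), better known as ALS1, the tonoplast half-type ABC transporter needed for aluminium tolerance, lies 23.6 kb before the GLP6 probe in the array's coordinates. It had 1.08 and 0.70, a mean of 0.89 ± 0.27 (limma adjusted p = 0.0145). AT5G39380, likened to calmodulin-binding proteins, rose by 0.75 ± 0.19 (limma adjusted p = 0.0155). Lower were the protein kinase gene AT5G38990, at -0.48 ± 0.11 (limma adjusted p = 0.0356), and the UDP-glucose dehydrogenase gene UDG4 (AT5G39320), at -0.49 ± 0.13 (limma adjusted p = 0.0361).

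Germins of cereals break down oxalate with oxygen, whereas Arabidopsis has another route through oxalyl-CoA. Of 3 genes listed here for that route, 1 fell and 2 did not pass, where 6.42% of all genes were lower. AAE3 (AT3G48990), the oxalyl-CoA synthetase that starts this route, had -1.05 and -1.15, a mean of -1.10 ± 0.07 or 2.14-fold lower in the aluminium RNA (limma adjusted p = 0.00502). AT5G17380, which encodes oxalyl-CoA decarboxylase, had 0.28 and -0.16 on replicates 1 and 2. The formate dehydrogenase gene FDH (AT5G14780) had 0.25 and 0.54.

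The mean ratios of the high, middle and flat members did not overlap under the other ways of making the ratio. These groups were named from the ratios of the same 2 arrays, so this describes them and is no test. The 3 high members had mean ratios between 2.71 and 5.16, AT5G39110 between 0.74 and 1.24, and the 4 flat members between 0.05 and 0.32. The series matrix gave no usable value for the probes of AT5G39130, AT5G39150 and GER2.

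**Figure D5:**
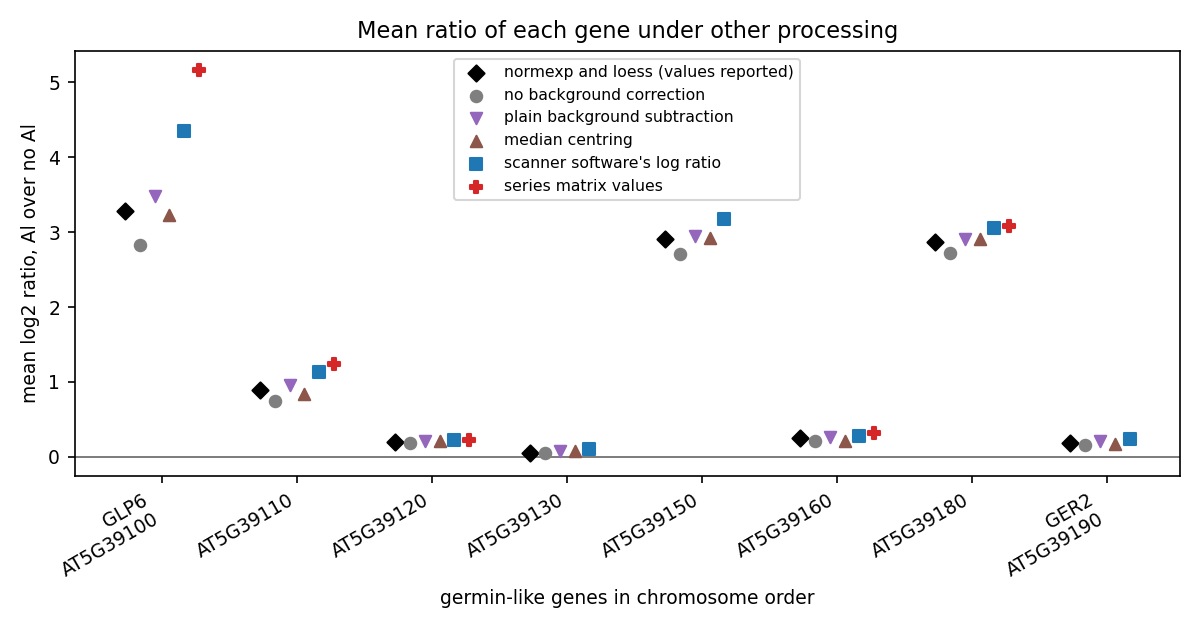
Mean log2 ratio of aluminium over no aluminium (y axis) of the 8 clustered germin-like genes in chromosome order (x axis), by how the ratio was made (symbols). GLP6 spreads from 2.83 without background correction to 5.16 with series matrix values, while the flat members stay between 0.05 and 0.32. Symbols for series matrix values are missing for AT5G39130, AT5G39150 and GER2.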

How the data were processed

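Two-colour Agilent arrays of root RNA were used. For each spot the deposited files hold an intensity in either channel, without normalization, and a log10 ratio of Cy5 over Cy3. Per the file headers, replicate 1 was read out with Feature Extraction 8.1.1.1 and replicate 2 with release 7.1.1; the submitters' processing notes name 9.5.1.1. Also used were the local background in either channel, flags, and the names, descriptions, listed transcripts and positions of the probes. A series matrix, also deposited, gives the authors' log2 values of 20346 probes, in the direction aluminium over control when set against the scanner ratios (r = 0.998 and 0.887, medians -0.0103 and -0.0112); its normalization and centring are unknown.

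Mean signals were corrected by normexp (offset 50) and normalised by loess within arrays in limma 3.58.1 (R 4.3.3), with control spots at weight 0, and per-channel levels additionally by Aquantile. Of 21500 probes, 108 with outlier marks, 746 others for which neither array had both channels well above background, and 1094 without a locus shared by both layouts were left out. All 19552 remaining genes were fitted with lmFit and eBayes against 0, two-sided, with 1 residual and 4.14 prior degrees of freedom. The fit and its adjustment, not the normalisation, were tested on simulated log2 ratios. Their spreads were drawn from the fitted prior, with independent genes, so the simulation cannot show that the fit's assumptions hold for these arrays. An exact sign-flip test of 2 arrays cannot go below p = 0.5. Nothing beyond the labels' "biological replicate" says whether the RNAs came from separate cultures, so p-values rest on the spread between these 2 arrays. For each gene eBayes moderates that spread towards one pooled over all genes. With 1 residual against 4.14 prior degrees of freedom, the pooled spread weighs more than the gene's own. The number of arrays limits precision. RefSeq (TAIR10.1) was used for names and held 19476 of the genes.

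The members and lists were chosen with earlier results of these data known. Genes are named by rule: all members, germin-like genes outside the cluster past adjusted p 0.05 or 2-fold on both arrays, neighbours past adjusted p 0.05, the oxalate genes, and the 5 genes nearest GLP6. Other germin-like genes and flanking genes were named after their values were seen. Alternatives covered background correction, centring, the source of the ratio, the filter on dim probes, several probes per gene and each replicate. Protein and promoter sequences were not used here.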

Additional observations from a re-analysis of the deposited data

How the results depend on the processing

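No paired analysis was possible beyond the one reported, because the ratio within an array already pairs both RNAs of a slide; a dye term would use up the 1 residual degree of freedom. For the 23 genes named by rule, 7 other settings gave 158 values, of which 146 moved by less than 1 SD between arrays and 12 by more, and no called gene changed sign. Leaving out the filter on dim probes and averaging over probes returned the same ratio for each of these genes. Those values are among the 146 and could not move. The count of members at least 2-fold higher on both arrays was 3, except 2 of 5 with series matrix values. Counts of calls depended on the setting, and the cause was not tested. Against 1601 higher and 1256 lower genes, median centring called 818 and 537 and the scanner software's ratios 82 and 57. Series matrix values gave 0 and 0 in limma, where the smallest adjusted p was 0.0584 and 5048 genes had an unadjusted p under 0.05. Of 4 higher members scanner ratios called 1 (4 at an unadjusted p under 0.05), and the series matrix 0 (3 of 5). For either of these sources limma called 0 of the germin-like genes outside the cluster (4 and 4 at an unadjusted p under 0.05), 0 neighbours higher or lower (5 and 6) and 0 oxalate genes (2 and 2). Median centring called 3 neighbours higher and 0 lower (5 in either direction at an unadjusted p under 0.05). Without background correction 0 neighbours were 2-fold higher on both arrays, against 1. With 1 array left out the GLP6 ratio was 3.05 or 3.52, with no test. A separate fit with the slide as a block was not run. The GLP6 control spots were only 3.37 and 2.11 times their background.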
